A study of Macrobrachium rosenbergii with 9 samples.

Results

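In Macrobrachium rosenbergii, the giant freshwater prawn, 92 of 21071 transcripts were abundant in every testis and every androgenic gland library and close to absent from ovary. They were chosen by their measured counts in these libraries. Each had a normalised count, written N, of at least 200 in all 6 male libraries. Its median N in ovary was at most 1/50 of its lowest testis value. Its lowest gland value was under 16 times its highest testis value. Its highest testis value was likewise under 16 times its lowest gland value, while tissue means could stand further apart. N is the deposited count divided by a size factor of the library, so that the bulk of transcripts has the same level in every library. The libraries came from adult prawns of the strain labelled CMr1, 3 each from testis and androgenic gland of males and 3 from ovary of females, with no treatment named. The labels do not say whether the libraries of a tissue, or the testis and gland libraries of 1 number, came from separate animals, so calls below measure the spread between these libraries only. Library totals ran from 7142794 to 11231573 counts.

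The androgenic gland is an endocrine organ found in male decapod crustaceans, attached to the end part of the sperm duct. It secretes an insulin-like hormone that drives male differentiation and supports the making of sperm, and removing it early can turn genetic males into females. The testis makes the sperm, and the ovary is the organ of the other sex that lacks both. The deposited IDs are not paired with gene names, and 0 of them matched the 31758 genes of the RefSeq table for the species. No gene name, role or sequence can therefore be given for the members, and the tissue labels could not be checked against marker genes. Transcripts are called here by the sex word and number in their ID, so that transcript_HQ_Male_transcript11731/f2p0/617 is Male 11731.

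The rule left the set in steps. The floor of 200 in all male libraries kept 2117 transcripts, and 94 of these, 4.44%, also met the ovary limit. Dropped next was 1 transcript whose lowest gland value was over 16 times its highest testis value. Another 1 was dropped because its highest testis value was over 16 times its lowest gland value. At the floor, Male 10141 was just inside with a lowest N of 201 and Male 11900 just outside with 199.9. At the ovary limit, the lowest testis value of Male 294 was 71.8 times the ovary median, while that of Female 23657, just outside, was 44.0 times. On the gland side, the lowest gland value of Male 2341 was 14.6 times its highest testis value and that of Male 1010, outside, 22.8 times. On the testis side, the highest testis value of Male 10845 was 3.80 times its lowest gland value and that of Female 4464, outside, 16.1 times. The rule used all 9 libraries, so the differences between tissues below describe the members and support nothing.

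The 92 transcripts made up a large part of all RNA counted in the androgenic gland. Their part of the total was 51.7%, 62.8% and 45.5% in androgenic gland 1 to 3, a mean of 53.3% ± 8.76 (SD, n = 3). In testis 1 to 3 they took 6.80%, 33.4% and 8.83%, a mean of 16.3% ± 14.8, which was 7.82% without testis 2. In ovary 1 to 3 they took 0.102%, 0.00204% and 0.00486%, a mean of 0.0363% ± 0.0568, which was 0.00345% without ovary 1. Every gland library was above every testis library and every testis library above every ovary library, and testis 2 lay between the other testes and the glands. By counting error alone, the 95% Wilson interval of each share extended no more than 0.0294 percentage points from its value. In bulk tissue, fewer cells of a type and less RNA per cell cannot be told apart. Of the 10 most abundant transcripts, 8 were members in each gland library, 9 in testis 2, and 2 each in testis 1 and testis 3.

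**Figure D1:**
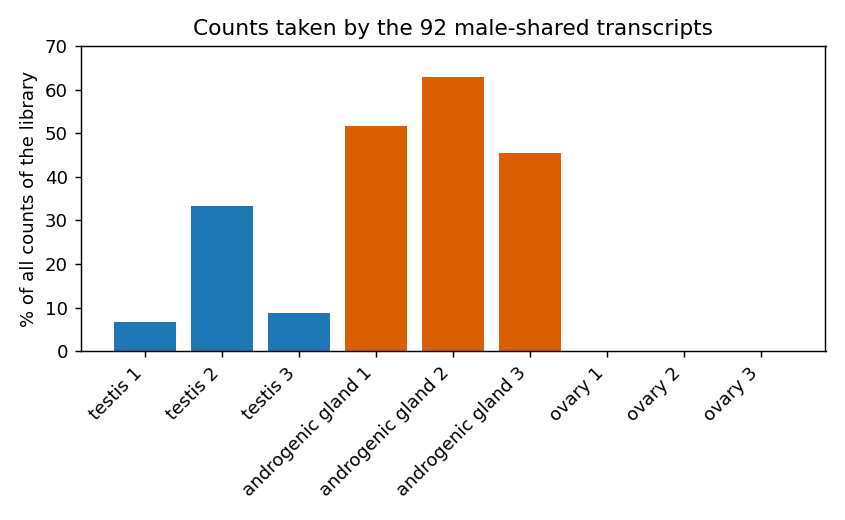
Share of all counts of each library, in percent, taken by the 92 male-shared transcripts, 1 bar per library. The gland bars stand between 45.5% and 62.8%, testis 2 stands at 33.4% against 6.80% and 8.83% in the other testes, and the ovary bars are too low to see.

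A few very abundant members carried much of this share. The 5 highest members of each male library, picked for each library separately, held between 44.1% and 55.5% of the members' counts there. Female 29686 (transcript_HQ_Female_transcript29686/f13p0/482), at 482 bases the shortest member, was first, with N of 101303, 424018 and 142922 in testis 1 to 3 and 1988052, 2833316 and 1018962 in androgenic gland 1 to 3. Male 11731, of 617 bases, was second with 114641, 466590 and 70909 in testis and 789786, 2355135 and 860767 in gland. Both were highest in the number 2 library of each male tissue, and their gland libraries did not overlap their testis libraries. Neither was called between gland and testis. Among members compared per kilobase of length, these were again first and second in gland, at 4038956 and 2164067 N per kilobase. Male 9995, Male 11121 and Male 11799 followed, and all 5 were under 1000 bases. The median member stood at 27526 N per kilobase in gland and 2992 in testis, and the lowest at 304 and 85.2.

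**Figure D2:**
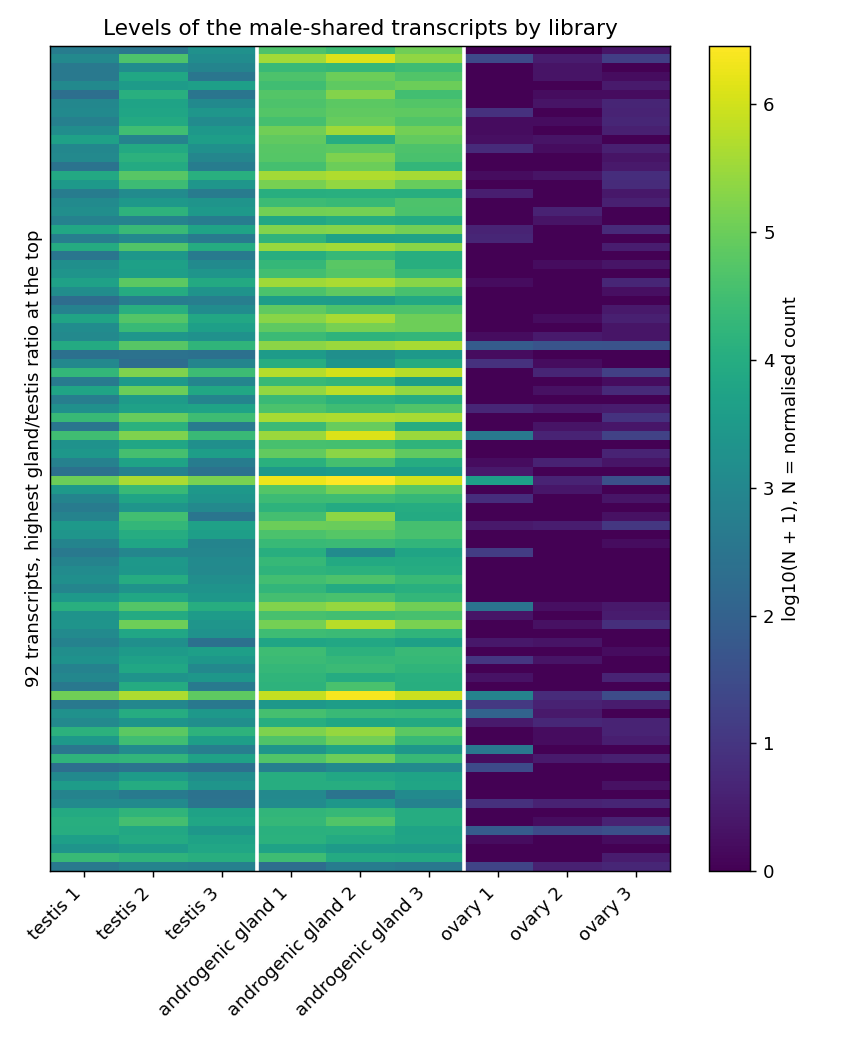
Level of each of the 92 transcripts (rows, ordered by the ratio of gland to testis) in each of the 9 libraries (columns), as log10 of N plus 1. The gland columns are brightest, testis 2 is brighter than testis 1 and 3 in most rows, and the ovary columns are dark except for scattered rows, most of them in ovary 1.

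Most members were more abundant in gland than in testis. The rule was uneven between them, as both of its limits compared the lowest gland library with the highest testis library. It thus let gland lead by more than testis could, and part of this lean was fixed by the choice of members. The mean N was higher in gland for 89 members and lower for 3. The median member stood 8.80-fold higher in gland, 3.14 on the log2 scale. In all, 17043 transcripts had enough counts to be tested. Over those of them with counts in both tissues, the median was 0.891-fold. Testis and gland libraries of each number were also set against each other. The members' median was then 22.1-fold for number 1, 5.47-fold for number 2 and 12.7-fold for number 3. The lowest gland library was above the highest testis library for 79 members, or 85.9%, against 21.3% of all tested transcripts. In edgeR's quasi-likelihood test, fitted on the whole table, 63 members were called higher in gland and 0 lower, at an adjusted p under 0.05 and a log2 fold change of at least 1, where 16% of all tested transcripts were called higher and 26.9% lower. The rule used this contrast, so nothing is read from that count. With each number as a term in the fit, 70 were called higher, against 15.7% of all tested transcripts. That term spanned all 9 libraries and so also tied ovary libraries to testis and gland libraries of the same number. Ovary showed no such link, so the 70 is not a paired result for gland and testis alone.

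The size of the gland lead depends on how libraries are put on 1 scale. Gland libraries had size factors of 0.383 to 0.683 against 1.15 to 1.27 in testis, so N raises gland levels relative to the total count. Scaled to library size, the median member stood 3.21-fold higher in gland and 10 members stood lower, 7 of which had stood higher by N. That scaling called 22 members higher and 1, Male 10845, lower, where 3.32% of all tested transcripts were called higher and 50% lower. It moved the median log2 fold change of all tested transcripts from -0.28 to -1.52. Without testis 2 the median member stood 17.3-fold higher in gland by N, and 74 were called higher, against 14.7% of all tested transcripts. Without testis 1 and without testis 3 the calls fell to 41 and 35. Without androgenic gland 1, 2 or 3 they fell to 40, 44 and 48. The shares of all tested transcripts called higher, in that order, were 13%, 13.3%, 13.1%, 14.1% and 12.8%.

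**Figure D3:**
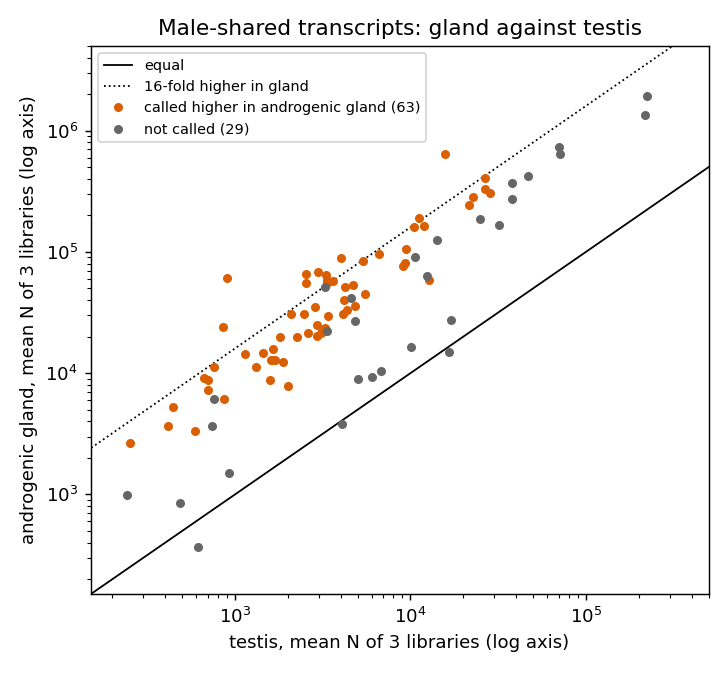
Mean N in testis (x) and in androgenic gland (y) of each of the 92 transcripts, both on log axes, each point the mean of 3 libraries. The 63 transcripts called higher in gland and the 29 not called both lie mostly between the line of equality and the 16-fold line, and 10 lie near equality.

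Ranked by their ratio of gland to testis, the members fell on either side of a gap that was noticed after the values were seen. In 10 members gland stood at 1.78-fold of testis or lower, and in the other 82 at 3.90-fold or higher. All of the 10 had overlapping gland and testis libraries, as against 3 of the 82. Lowest was Male 10845 (transcript_HQ_Male_transcript10845/f2p0/790), with 409, 782 and 661 in testis 1 to 3 and 206, 509 and 384 in gland 1 to 3. Male 11521 (transcript_HQ_Male_transcript11521/f12p0/590) had 22399, 15813 and 11208 in testis and 27808, 9042 and 8100 in gland. In both, number 1 to 3 of gland and testis overlapped, and Male 11521 was highest in the number 1 library of each tissue. The steadiest members over the 6 male libraries also belonged to the 10. Male 6971 (transcript_HQ_Male_transcript6971/f5p0/1396) had 2164, 3575 and 6395 in testis and 5247, 3225 and 2937 in gland, a ratio of highest to lowest of 2.96. Male 6470 (transcript_HQ_Male_transcript6470/f55p0/1404) had 4377, 8582 and 5208 in testis and 13134, 8756 and 5997 in gland, a ratio of 3.0. Neither separated the tissues. For the 92 members together, the median of this ratio was 33.9 and the widest was 1221.

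At the other end, 57 members stood 8-fold or more above testis in gland and 11 of them 16-fold or more. Male 9819 (transcript_HQ_Male_transcript9819/f2p0/962) had 515, 366 and 1834 in testis 1 to 3 and 44489, 26235 and 112317 in gland 1 to 3, a ratio of means of 67.4. Its library 3 was highest and its library 2 lowest in both tissues. Male 1007 (transcript_HQ_Male_transcript1007/f21p0/2834) had 1075, 44684 and 1336 in testis and 355234, 1312536 and 246117 in gland, a ratio of 40.6. Here library 2 was highest in both tissues, and testis 2 alone set most of the testis mean. Both were called higher in gland and neither overlapped with testis. Of the 29 members not called, 19 came from the 82 with the larger ratios, among them the 4 most abundant members.

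Testis 2 differed from the other testes in most of the members. It was above the mean of testis 1 and 3 in 86 of 92, more than 2-fold above in 67 and more than 8-fold above in 19, with a median of 3.60-fold. Among all tested transcripts 13.5% were more than 2-fold above, counting those with counts in testis 2 alone of the testes. A ratio could be taken for 14955 of them, with counts in testis 2 and in testis 1 or 3. The median of these was 1.00-fold, and 14.2% were more than 2-fold above. Under TMM and library size scaling the members' median was 3.47-fold and 3.18-fold, and 86 and 84 members were above. Testis 1 and 3 were close by comparison, within 2-fold of each other in 70 members, with a median ratio of testis 3 to testis 1 of 1.34. This is 1 library against a pair, so it is described and not tested. The rule also used testis 2, since 1 high testis library was enough to bring a transcript within 16-fold of gland, so part of this excess was fixed by the choice of members. Chosen from the other 8 libraries, the rule gave 66 members, and 29 of the 92 were not among them. In those 66, testis 2 was above the mean of testis 1 and 3 in 58, more than 2-fold above in 39 and more than 8-fold above in 5, with a median of 2.62-fold. That choice was added after the values were seen.

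The excess in testis 2 ranged widely among members. Male 7370 (transcript_HQ_Male_transcript7370/f5p0/1333) had 776, 30853 and 326 in testis 1 to 3, which put testis 2 at 56.0 times the mean of the others. Its gland libraries, at 33691, 230598 and 8593, also varied most of all members, by 26.8-fold from highest to lowest. For Male 7905 (transcript_HQ_Male_transcript7905/f10p0/1266) testis 1 to 3 had 2172, 108839 and 2381, a ratio of 47.8, and gland 1 to 3 had 124899, 560956 and 140573. In both, library 2 was the highest of gland as of testis, and neither was called between the tissues. The opposite pattern was found in few members. Male 7275 (transcript_HQ_Male_transcript7275/f2p0/1361) had 5044, 785 and 4181 in testis and 74818, 10328 and 80925 in gland. Male 10141 (transcript_HQ_Male_transcript10141/f4p0/916) had 1055, 201 and 849 in testis and 10475, 2361 and 9121 in gland. In these, library 2 was the lowest of both tissues, 5.88-fold and 4.73-fold below the mean of libraries 1 and 3 in testis and 7.54-fold and 4.15-fold below in gland.

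Library 2 of testis was set beside library 2 of gland in each member. Testis 2 was the highest testis library in 78 of the 92, against 35.9% of all tested transcripts, and androgenic gland 2 the highest gland library in 56, against 29.8%. The rule used both libraries, so part of these counts was fixed by the choice of members. Chosen without testis 2 and androgenic gland 2, the rule gave 68 members. Of these, 50 were highest in testis 2, 30 in androgenic gland 2 and 28 in both. Of the 56 members highest in androgenic gland 2, 54 were also highest in testis 2, and of the other 36, 24 were. The same number was highest in both tissues in 60 members, or 65.2%, against 37.4% of all tested transcripts, a share that depends on how often testis 2 is highest. Testis 2 and gland 2 were both above the mean of their libraries 1 and 3 in 65 members and both below it in 6. Testis 2 was above and gland 2 below in 21, and the reverse held for 0. Male 8079 (transcript_HQ_Male_transcript8079/f3p0/1239) was 1 of those 21, with 11211, 1268 and 5935 in gland 1 to 3 and 410, 932 and 936 in testis 1 to 3. Across the 92 members, the log2 ratio of library 2 to libraries 1 and 3 in testis had a Pearson r of 0.777 and a Spearman rho of 0.716 with the same ratio in gland. Across 12316 tested transcripts with counts in both tissues these were 0.415 and 0.336. The ratio of library 3 to library 1 followed less closely, with r of 0.326 and rho of 0.241 over the members and 0.352 and 0.243 over 12182 tested transcripts. With members chosen from the other 7 libraries, without testis 2 and androgenic gland 2, the library 2 ratios had r of 0.894 and rho of 0.712 over 68 members. All points share the same 6 libraries, so these values describe the libraries and carry no p.

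**Figure D4:**
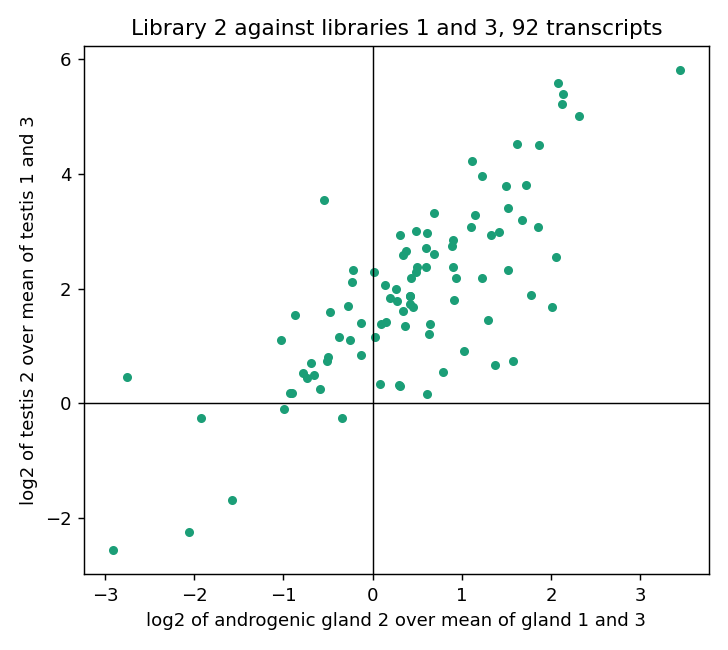
Log2 ratio of androgenic gland 2 to the mean of gland 1 and 3 (x) against log2 ratio of testis 2 to the mean of testis 1 and 3 (y), 1 point for each of the 92 transcripts. Points rise together, with 65 above 0 on both axes and 6 below 0 on both.

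A pair of neighbouring groups, defined from the same libraries, were set beside the members. The gland-side group held 215 other transcripts with N of at least 200 in every gland library and an ovary median of at most 1/50 of the lowest gland value. The testis-side group held 29 others that met the same limits in testis, and 2 transcripts were in both groups. The testis 2 ratio had a median of 1.68-fold in the gland-side group, over 205 transcripts with testis counts, and 1.01-fold in the testis-side group, with 43.9% and 6.90% more than 2-fold above. Both groups leave out what the rule admitted, and a high testis 2 could move a transcript from the gland-side group to the members, so these medians are not set against the members' 3.60-fold. With both chosen without testis 2, the median was 2.62-fold in the 66 members. It was 2.12-fold in the gland-side group, over 231 transcripts with testis counts. More than 2-fold above were 59.1% and 51.1%. The log2 ratios of library 2 in testis and gland had r of 0.685 and rho of 0.519 over the 205 gland-side transcripts. Over 10 on the testis side these were 0.637 and 0.442. Chosen without testis 2 and androgenic gland 2, the gland-side group held 272 transcripts. Testis 2 was highest of testis in 160 of them and androgenic gland 2 highest of gland in 127. Over 257 of these, r was 0.593 and rho 0.537. The gland-side group took 0.728%, 2.65% and 1.33% of the counts in testis 1 to 3, and the testis-side group 7.02%, 0.568% and 4.67%. So testis 2 had the highest share of the first and the lowest share of the second, and its share of the members was 33.4%. The part that other tissue in the testis 2 dissection may have in these values was not tested, since no marker could be named.

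Ovary held traces of most members. Of the 92, 19 had 0 counts in all 3 ovary libraries, as did 1.32% of all tested transcripts, and 19 had some count in all 3. The median member had 4.58 counts over the 3 libraries together, and 65 members had fewer than 10. A library count of 0 allows an N of up to 1.84 to 2.04, taken as 3 counts. Of the members with 0 counts, Male 10909 (transcript_HQ_Male_transcript10909/f70p0/627) was the most abundant in male tissue, with 2279, 10156 and 4076 in testis 1 to 3 and 42636, 55101 and 37629 in gland 1 to 3. Male 109 (transcript_HQ_Male_transcript109/f4p0/4237) was second, with 2127, 4167 and 2280 in testis and 30844, 53629 and 21877 in gland. Both had gland libraries above all testis libraries and were called higher there.

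The ovary counts that did occur were uneven between libraries. Members summed to 10110 counts in ovary 1, of which Female 29686 gave all but 3486, to 229 in ovary 2 and to 493 in ovary 3. N was above 20 for 11 members in ovary 1, for 2 in ovary 2 and for 4 in ovary 3. Female 29686 had N of 4376 in ovary 1 against 3.52 and 37.3 in ovary 2 and 3, and Male 11731 had 784 against 5.29 and 31.0. In both, ovary 1 was far above the other 2 and still below every male library. Male 6852 (transcript_HQ_Male_transcript6852/f2p0/1427) was the exception, with 371 in ovary 1, 0 in ovary 2 and 3, and 369, 1271 and 562 in testis 1 to 3. Its ovary 1 value stood just above testis 1, and it was the only member whose ovary libraries overlapped testis. The highest ovary library was below the lowest testis library in the other 91, and in 26.1% of all tested transcripts. Against that, Male 294 (transcript_HQ_Male_transcript294/f2p0/3649) had 71.2, 27.1 and 35.9 in ovary 1 to 3, a low but even level, beside 10457, 7350 and 2575 in testis and 12295, 13570 and 5449 in gland. In edgeR's test 91 members were called lower in ovary than in testis, where 19.6% of all tested transcripts were, and 91 higher in gland than in ovary, where 20.1% were. Male 6852 was the member not called in either. The rule fixed both contrasts, so these counts carry no evidence. Male 6852 was called in both without ovary 1.

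**Figure D5:**
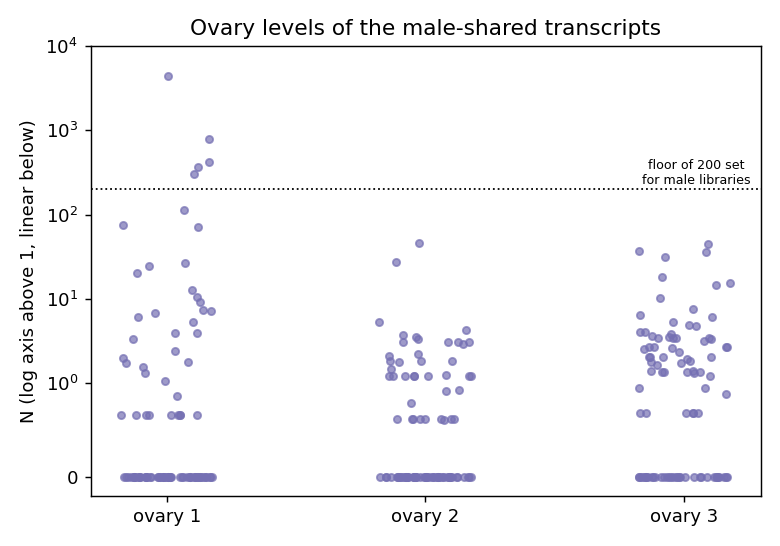
N of each of the 92 transcripts in each ovary library, on an axis that is logarithmic above 1 and linear below, with a small sideways scatter. Most points lie below 10, and the 5 points above the dotted line at 200, the floor set for male libraries, are all in ovary 1.

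The sex word in the IDs and the transcript lengths were not used to choose the members. The word Male was carried by 90 of the 92, or 97.8%, against 30.5% of all tested transcripts, 54.4% of the 2117 at the male floor, 87.9% of the gland-side group and 93.1% of the testis-side group. The 2 with the word Female were the most abundant member, Female 29686, and Female 5571, which had a far lower N of 208, 279 and 242 in testis 1 to 3 and 595, 1139 and 1241 in gland 1 to 3. What the sex words stand for is not stated in the labels, and they may go back to these same tissues, so they are not taken as independent of the counts. Lengths ran from 482 bases to the 5291 of Male 27 (transcript_HQ_Male_transcript27/f3p0/5292). Their median was 1306.5, against 1649 for all tested transcripts and 2134 at the male floor. Under 1000 bases were 35 members, 38.0%, against 20.4% of all tested, 11.7% at the male floor, 24.2% of the gland-side group and 6.90% of the testis-side group. Short transcripts were thus over-represented next to each of these groups, as a description with no test. Only 2 of the 10 members with like levels in gland and testis were that short, and 33 of the other 82. Male 11799 (transcript_HQ_Male_transcript11799/f152p0/564), the second shortest, had 4833, 66440 and 8511 in testis and 345785, 440526 and 200397 in gland, and Male 27, the longest, had 1463, 29235 and 2793 in testis and 111802, 331894 and 123058 in gland.

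The IDs have the form that PacBio's Iso-Seq software gives to consensus transcripts, in which the number after f is the count of full-length long reads behind each. The labels do not state this. On that reading the number comes from other libraries than the counts. It was 100 or more for 7 members, 7.61%, against 0.587% of all tested transcripts, 1.70% at the male floor, 0.930% of the gland-side group and 3.45% of the testis-side group, which is 1 transcript. All 7 carried the word Male and were 564 to 905 bases long, while 49 of the 110 such transcripts in the table were under 1000 bases. Male 9995 (transcript_HQ_Male_transcript9995/f3085p0/758) had the second highest number of the whole table, 3085, and Male 10635 (transcript_HQ_Male_transcript10635/f1745p0/677) the fourth highest, 1745. These were singled out after their values were seen. Their counts differed far more than these numbers. Male 9995 had N of 18617, 164605 and 27277 in testis 1 to 3 and 553820, 1058168 and 580510 in gland 1 to 3. Male 10635 had 378, 9278 and 436 in testis and 15084, 40563 and 11261 in gland, and 0 counts in ovary. Testis 2 was the highest testis library and gland 2 the highest gland library for both. Over the 92 members the number followed the gland level per kilobase weakly, with a Spearman rho of 0.286. The median number was 4 over the members, 4 at the male floor and 2 over all tested transcripts, and it was exactly 2 in 31 members, or 33.7%, against 35.0% and 50.7%.

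Many members may share reads with other transcripts. Counts were whole numbers, to within 0.005, in all 6 male libraries for 10 members, or 10.9%. They were so for 41.1% of all tested transcripts, 31.6% at the male floor, 22.3% of the gland-side group and 48.3% of the testis-side group. These shares were not matched for level, and a count of 0 is whole. Median N in androgenic gland 1 to 3 was 30260, 36140 and 20850 for members and 37.8, 39.2 and 41.0 for all tested transcripts. In the other members at least 1 value had decimals, as when an estimate splits reads between similar transcripts. Single values of related members are therefore uncertain. Male 27 was among the 10 members with whole counts, and none of the members with like levels in gland and testis was. Their ratio of gland to testis ran from 4.60 to 16.9, 9 were called higher in gland, and testis 2 stood at 1.36 to 13.7 times the mean of testis 1 and 3 in all of them.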

How the data were processed

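RNA-seq libraries of testis, androgenic gland and ovary, 3 each, were compared. The authors deposited 1 table of read counts per transcript with transcript lengths, per the file headers. These deposited values are expected counts, since many have decimals, made before deposit by a step that no label names. Between 46.87% and 64.34% of a library's values were whole numbers. Per the submitters' processing notes, Bowtie 0.12.2, DESeq 1.10.1 and a build named mm8 were involved. mm8 is a mouse build, and what it was used for is not stated in the labels. Neither is the program that counted reads, nor whether it used strand. Libraries were made with a directional kit, per the labels' protocols.

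Size factors were medians of ratios over the 11287 transcripts with a count in all 9 libraries. Members and lists were chosen with earlier results of these data known. Expected counts were rounded and fitted in edgeR 4.0.16 (R 4.3.3; quasi-likelihood F test, TMM factors, filterByExpr at a minimum count of 10 and total of 15, prior count 1, 1 mean for each tissue, 6 residual df) on 17043 transcripts, 92 members among them. P-values were adjusted by Benjamini-Hochberg over all of these, two-sided. The procedure was tested on simulated data.

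Same-numbered testis and gland libraries moved together: their deviations from the tissue mean had correlations of 0.289 to 0.417 across tested transcripts, against at most -0.016 for other numbers. Deviations from a mean of 3 libraries cancel out, so positive same-number values push the others down, and the contrast adds no separate weight. Those of ovary with testis or gland reached at most 0.009 for the same number and 0.135 for other numbers. The numbers were taken to pair testis and gland on the strength of the same-number values, as no label says so. What the libraries of 1 number share is not stated. The fit used for the calls had no such term. Named members were, by rule, the 2 most extreme for abundance, ratio of gland to testis, testis 2 ratio, spread, ovary level and length, and those beside each threshold. Other members were chosen after their values were seen. Male 6852, Female 5571, Male 11121, Male 9995 and Male 10635 were such. Alternatives were DESeq2 1.42.0, other scalings, no filter, a term per number, other rule limits, and each library left out. Alternatives that keep the 92 members fixed, or that choose members without the library 2 then described, were added after the data were seen. Plots were drawn with matplotlib 3.10.9.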

Additional observations from a re-analysis of the deposited data

How the results depend on the processing

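The number of members stayed within 1.5 times of 92 under every rule setting tried, from 72 with a floor of 400 to 109 with a floor of 100, and from 66 without testis 2 to 105 without testis 1. Without testis 2, 63 of the 66 were among the 92. Calls of members between gland and testis fell from 63 to 23 (22 higher, 1 lower) under library size scaling, which lowers gland levels by construction. They ranged from 35 to 74 as each library was left out, were 61 with DESeq2, where 13 members had no adjusted p, and 70 with the replicate block, which kept all 63. Calls between ovary and testis ranged from 90 to 92 over the libraries left out, were 90 with the block and 79 with DESeq2, and those between gland and ovary ranged from 91 to 92, with 91 under the block and 79 with DESeq2. The block changed no other count of calls. The median log2 ratio of gland to testis, 3.14, was 1.72 with library size scaling and members chosen again, and 1.68 with the same 92. Leaving out single libraries gave 2.85 to 3.67 with members chosen again and 2.78 to 4.11 with the same 92. The median log2 ratio of testis 2 to testis 1 and 3, 1.85, was 1.67 with library size scaling and the same 92, and ranged from 1.73 to 2.07 as libraries were left out. It was 1.39 with members chosen without testis 2 and 1.37 without testis 2 and androgenic gland 2, choices that remove members admitted through those libraries. The cause of these shifts was not tested further. Without the 10 most abundant transcripts of each library, the members' share was 35.4% in androgenic gland in place of 53.3%, since most of the 10 were members, and 9.02% in testis. Leaving out a library gave 48.6% to 57.2% in gland, 7.82% to 21.1% in testis and 0.00345% to 0.0534% in ovary. With 3 libraries per tissue, and counts of 0 that allow an N of up to 2.04 in ovary, levels in ovary below that value cannot be ordered.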
